A study of Mus musculus with 64 samples.

Results

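The carbonic anhydrase family was followed through the adipose tissue of mice lacking Nampt in their fat cells. Its 7 members here were Car2, Car3, Car4, Car5b, Car8, Car13 and Car14, out of 16 carbonic anhydrase genes and 52636 genes in the count table. The family was chosen by a measured value, the fall of Car14 in knockout brown fat against control brown fat, so the brown fat difference between genotypes is described below with no test. RNA sequencing read counts per gene were deposited for 64 samples of male mice, 4 in each of 16 groups formed by depot, genotype and time of day. The depots were brown fat (BAT, brown adipose tissue) and the white fat beside the epididymis (eWAT). The knockouts, called FANKO, carried a Nampt gene with exon 3 flanked by loxP sites together with a Cre recombinase driven by the Adiponectin promoter (Adiponectin-Cre crossed with the NamptTM1Jtree line), and the WT controls were littermates with the same floxed gene and no Cre. Adiponectin-Cre is active in adipocytes, so blood, vascular and immune cells of both genotypes kept Nampt. Tissue was taken at ZT6, ZT10, ZT18 and ZT22, in hours after lights on, from chow-fed mice 2 to 4 months old. Whether the BAT and eWAT of a given number came from the same animal is not stated.

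Carbonic anhydrases are zinc enzymes that convert carbon dioxide and water to bicarbonate and a proton, and back. The isoforms differ mainly in where they sit and how fast they work. Car2, Car3 and Car13 are cytosolic, Car5b is mitochondrial, Car4 is tethered to the outside of the plasma membrane by a lipid anchor, and Car14 spans the plasma membrane with its active site outside the cell. Car8 is a cytosolic relative that has lost an active site histidine and with it the enzyme activity. Mitochondrial carbonic anhydrase supplies bicarbonate to pyruvate carboxylase, and the cytosolic forms can supply it to acetyl-CoA carboxylase, the first committed step of fatty acid synthesis. Car3, a slow isoform, is known as one of the most abundant proteins of white adipocytes and of slow skeletal muscle.

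Car13, Car3 and Car2 lie in a row on the plus strand of chromosome 3 within 259 kb, with Car1 on the other strand between Car13 and Car3 (GENCODE M21 annotation of GRCm38). Car13 spans chr3:14641727-14663002, Car3 spans chr3:14863512-14872523 and Car2 spans chr3:14886273-14900770. Car14 is on the minus strand of the same chromosome, far from that cluster, at chr3:95897768-95904691. Car8 is at chr4:8143362-8239041 on the minus strand, Car4 at chr11:84957786-84966044 on the plus strand and Car5b at chrX:163976822-164027997 on the minus strand. The end of Car14 overlaps Aph1a, a subunit gene of gamma-secretase on the opposite strand, and 445 exonic bases are shared. Whether the counting used strand is not given in the sources used here.

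The 250 bases before the RefSeq start were held for 3 of the 7 members, in the GRCm38.p6 promoter table. All 3 are shown, as each gene had a pattern of its own: Car14 was the member most unequal between the genotypes in BAT, Car5b the member that was higher in knockout BAT, and Car4 the member whose 4 ranges all overlapped. They read 5′ to 3′ on the strand of the gene, from chr3:95904686-95904935 for Car14, chrX:164028011-164028260 for Car5b and chr11:84957504-84957753 for Car4. Capitals mark matches to any of 6 short motifs.
Car14: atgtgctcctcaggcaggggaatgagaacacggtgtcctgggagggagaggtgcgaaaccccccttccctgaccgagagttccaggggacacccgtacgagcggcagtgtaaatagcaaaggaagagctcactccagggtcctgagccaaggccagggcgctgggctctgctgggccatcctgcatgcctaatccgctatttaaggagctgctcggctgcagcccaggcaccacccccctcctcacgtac
Car5b: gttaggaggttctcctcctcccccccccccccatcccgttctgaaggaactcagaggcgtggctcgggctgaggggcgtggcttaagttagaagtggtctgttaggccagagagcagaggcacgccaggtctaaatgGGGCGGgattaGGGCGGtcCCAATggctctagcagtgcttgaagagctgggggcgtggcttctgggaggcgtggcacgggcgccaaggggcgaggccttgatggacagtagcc
Car4: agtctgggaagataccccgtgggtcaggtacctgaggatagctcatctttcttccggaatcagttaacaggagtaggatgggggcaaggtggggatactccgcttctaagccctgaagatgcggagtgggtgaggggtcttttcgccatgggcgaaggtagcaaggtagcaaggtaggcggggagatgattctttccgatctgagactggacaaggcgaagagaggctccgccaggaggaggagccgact
The motifs were searched on both strands as the E-box CACGTG, the nuclear receptor half-site AGGTCA, the D-box TTATGTAA, the TATA box TATAAA, the CCAAT box CCAAT and the GC box GGGCGG. Only the Car5b window held any, with GC boxes at 113 and 102 bases before the start and a CCAAT box at 94, none of them overlapping. Over all 32851 promoter windows of this length, 32.7% held a GC box, 33.8% a CCAAT box, 14.0% the half-site, 12.4% the TATA box, 6.02% the E-box and 0.819% the D-box. The windows were GC-rich, at 62.0% for Car14, 63.6% for Car5b and 56.4% for Car4. A missing match says only that those letters are not in this window.

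The libraries held between 6117343 and 30544847 counted reads, with a median of 15826651. All 7 members passed the filter on low counts, which kept 20249 genes. Levels are given as CPM, the reads of a gene scaled to a common normalised library size. Nampt was 4.97-fold lower in FANKO BAT than in WT BAT, with no overlap between the genotypes. In eWAT the log2 difference of Nampt was -0.50 ± 0.07 (adjusted p = 4.7e-09, edgeR quasi-likelihood test), ranging from -0.03 ± 0.13 at ZT6 to -1.11 ± 0.14 at ZT18. Counts cover the whole gene, so transcripts lacking only the deleted exon 3 would still be counted. The Nampt level is thus not a measure of how complete the deletion was. The depots were as labelled: Ucp1, the brown fat uncoupling protein, lay between 1930 and 7370 CPM in WT BAT and between 523 and 2061 CPM in FANKO BAT, and reached at most 7.10 CPM in eWAT. Cell markers moved with genotype in BAT, and in eWAT as given with the results there. In BAT the summed CPM of 6 macrophage markers was 96.9 to 185 in WT BAT and 471 to 1148 in FANKO BAT, 7 brown adipocyte markers summed to 5271 to 11378 against 1369 to 3758, and 6 red blood cell markers to 225 to 546 against 80.8 to 229. There was also no overlap in BAT for the 8 adipocyte markers (11355 to 18096 in WT, 5834 to 10008 in FANKO), the 7 endothelial markers (551 to 743 and 380 to 544) and the 6 lymphocyte markers (1.14 to 5.37 and 18.2 to 86.5). These sums lean on their most abundant genes: in WT BAT, Ucp1 had a median of 4305 CPM beside 8040 CPM for the brown adipocyte sum. Gene by gene in BAT, 4 of the 7 brown adipocyte markers were called lower and none higher, beside 67.0% of all genes called. Of the 6 macrophage markers 5 were called higher and 1 lower. Skeletal muscle markers exceeded a summed 100 CPM in 9 libraries, 5 of them WT BAT. Epididymis markers exceeded a summed 10 CPM in 7 libraries, 5 of FANKO eWAT and 2 of WT eWAT. In whole tissue, fewer cells of a type cannot be told apart from less RNA per cell, here and in every result below.

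Per unit of exonic length, Car3 was the most abundant member in all 4 combinations of depot and genotype, and its range did not overlap that of the next member in any of them. Its median was 5092 CPM per kb in WT eWAT, 2116 in FANKO eWAT, 1622 in WT BAT and 85.0 in FANKO BAT. Of the family's summed CPM per kb, Car3 made up a median of 96.0% in WT BAT (94.5 to 96.9%), 98.7% in WT eWAT, 96.1% in FANKO eWAT and 65.0% in FANKO BAT (49.0 to 78.4%). The second place was held by Car13 in WT BAT at 26.1 CPM per kb, where its range overlapped that of Car5b at 13.8. In FANKO BAT, Car5b at 20.0 CPM per kb and Car13 at 17.6 overlapped as well. In eWAT, Car5b stood clear of Car13 in both genotypes, with 55.3 against 7.71 CPM per kb in WT and 65.6 against 11.7 in FANKO.

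**Figure D1:**
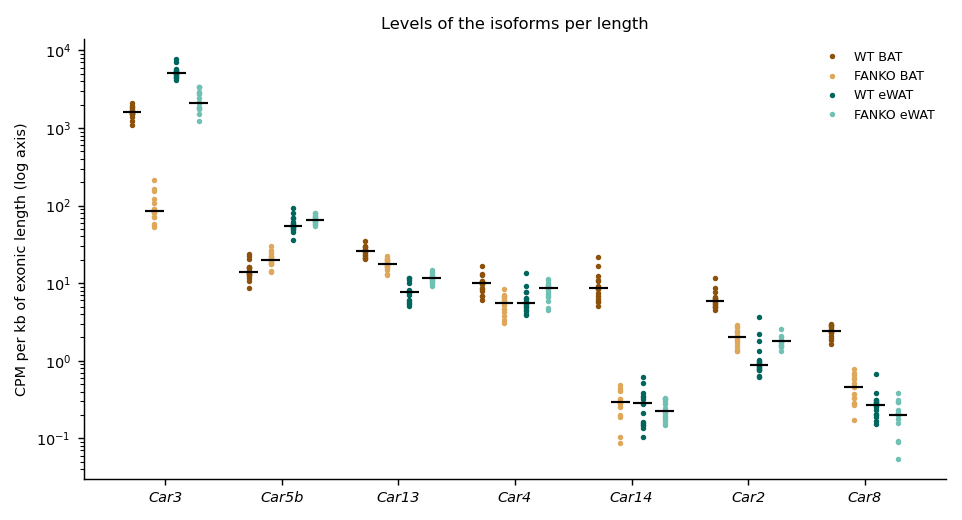
Level of each of the 7 members per unit of exonic length (CPM per kb, log axis) in the 4 combinations of depot and genotype, 1 point per sample with 16 samples per combination and a line at their median. Car3 lies above every other member in each combination, and 1 FANKO eWAT sample with no Car8 count is not drawn.

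At the lower end of the order the members separated by depot. Car4, Car14 and Car2 followed Car5b in WT BAT with medians of 9.94, 8.66 and 5.82 CPM per kb and overlapping ranges, and Car8 was lowest at 2.45, below every other member's range. In eWAT of both genotypes Car14 and Car8 shared the last places with overlapping ranges, at 0.284 and 0.269 CPM per kb in WT and 0.223 and 0.202 in FANKO. In FANKO BAT the last places were again those of Car8 at 0.456 and Car14 at 0.296 CPM per kb. Without Car3, the summed level of the other members had medians of 65.4 CPM per kb (WT) and 46.6 (FANKO) in BAT and 70.4 (WT) and 88.1 (FANKO) in eWAT, a far narrower spread than that of Car3 itself.

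**Figure D2:**
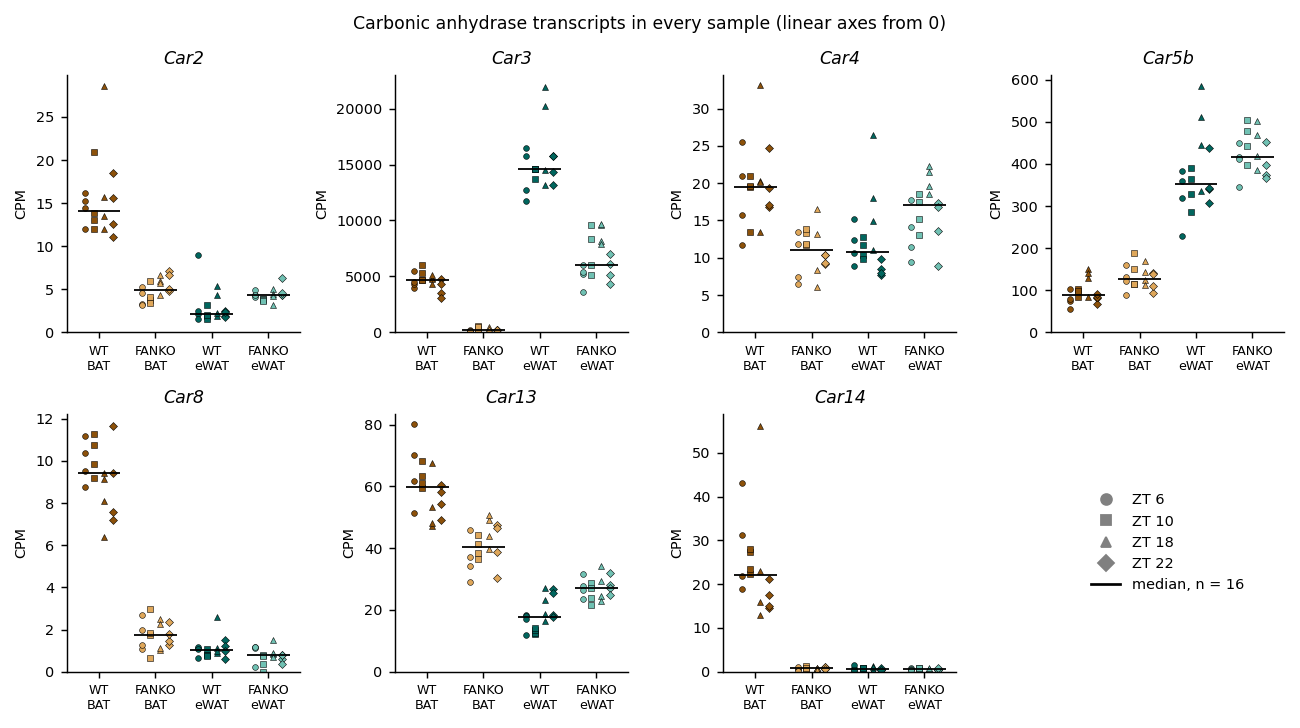
Level of each member (CPM, linear axes from 0) in every sample, by depot and genotype, with a symbol for each ZT and a line at the median of 16 samples. Car14, Car8, Car2 and Car3 lie lower in FANKO BAT than in WT BAT with no overlap, and in eWAT only Car3 is fully separated by genotype.

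In BAT, 6 of the 7 members were lower in FANKO than in WT mice and Car5b was higher. Car14, the membrane-spanning isoform, ranged from 12.9 to 56.1 CPM in the 16 WT BAT samples with a median of 22.03, on 90 to 642 reads. In the 16 FANKO BAT samples it ranged from 0.223 to 1.22 CPM with a median of 0.752, on only 2 to 23 reads, so the groups did not overlap and the knockout levels rest on few reads. The mean difference over the time points was -5.02 ± 0.20 on the log2 scale (SE), which is 32.5-fold lower, and it kept between -5.25 and -4.47 over the alternative settings. The highest WT value was that of replicate 4 at ZT18, a library whose muscle markers summed to 530 CPM and which also held the highest Car4 (33.2 CPM) and Car2 (28.6 CPM). Car14 did not follow these markers throughout. The lowest WT value, 12.9 CPM in replicate 1 at ZT18, came with muscle markers of 269 CPM. Replicate 4 at ZT6 had 43.0 CPM of Car14 and muscle markers of 56.6 CPM. Without the muscle-rich libraries the Car14 difference was -4.76. Aph1a, which shares bases with Car14, had medians of 29.9 CPM in WT BAT and 11.97 CPM in FANKO BAT, and 12.6 CPM in WT eWAT, where Car14 stood at 0.723 CPM.

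Among the cytosolic members, Car3 ranged from 3089 to 6015 CPM in WT BAT with a median of 4646, and from 150 to 607 CPM in FANKO BAT with a median of 244. The groups did not overlap and the log2 difference was -4.08 ± 0.12, or 17.0-fold lower, and the same without the muscle-rich libraries (-4.08). Car2, the fast isoform also abundant in red blood cells, had a median of 14.1 CPM (11.0 to 28.6) in WT and 4.92 CPM (3.21 to 7.07) in FANKO BAT, again with no overlap, and a log2 difference of -1.62 ± 0.16. The lower Car2 went together with the lower red blood cell markers given above, and their part in it was not tested. Car13, a cytosolic isoform found in many tissues, had overlapping ranges of 47.3 to 80.1 CPM in WT and 29.2 to 50.8 CPM in FANKO BAT. Its log2 difference was -0.54 ± 0.07, and it turned to 0.039 when libraries were scaled by their total alone. The inactive relative Car8 had a median of 9.44 CPM (6.40 to 11.7) in WT and 1.76 CPM (0.669 to 2.98) in FANKO BAT, with no overlap and a log2 difference of -2.41 ± 0.18.

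Of the members that face bicarbonate pools outside the cytosol, the lipid-anchored Car4 had a median of 19.5 CPM (11.8 to 33.2) in WT BAT and 11.0 CPM (6.07 to 16.5) in FANKO BAT, overlapping ranges and a log2 difference of -0.86 ± 0.13. Mitochondrial Car5b went the other way. It had a median of 87.6 CPM (55.3 to 150) in WT BAT and 127 CPM (89.0 to 189) in FANKO BAT, with overlapping ranges and a log2 difference of 0.49 ± 0.09. Since 67.0% of all genes tested passed FDR 0.01 between the genotypes in BAT (33.1% higher, 33.9% lower) and 22.6% did not overlap between 16 and 16 samples, and since this contrast chose the family, nothing is read from how many members differed. At single time points the 4 WT and 4 FANKO BAT samples did not overlap for 5 members at ZT6, 6 at ZT10, 4 at ZT18 and 7 at ZT22, beside 50.3%, 52.4%, 41.7% and 48.6% of all genes. For Car5b, higher in FANKO BAT, that was the case at ZT10 and ZT22. The members just inside and outside no overlap were Car2, whose lowest WT value of 11.0 CPM lay above its highest FANKO value of 7.07, and Car13, whose lowest WT value of 47.3 CPM lay below its highest FANKO value of 50.8.

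**Figure D3:**
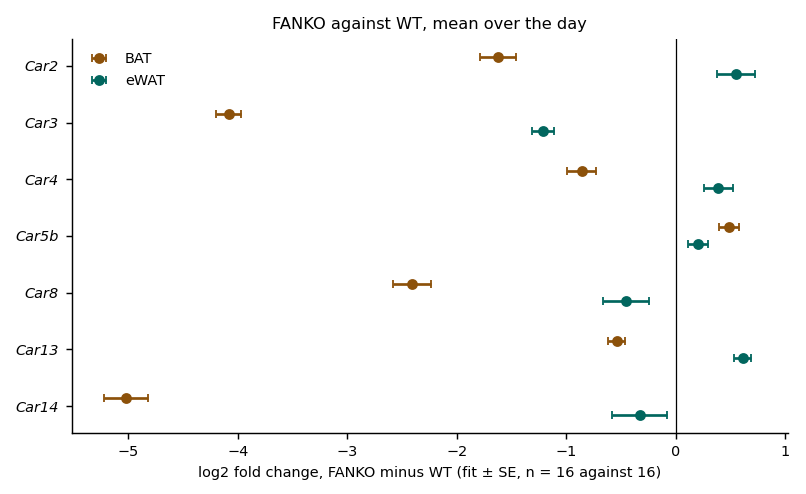
Fitted log2 difference in level, FANKO minus WT, averaged over the 4 time points for each member in BAT and in eWAT, with bars of 1 SE. In BAT the points run from -5.02 for Car14 to 0.49 for Car5b and carry no test, and in eWAT they run from -1.21 for Car3 to 0.61 for Car13.

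In eWAT, 4 of the 7 members differed between the genotypes at FDR 0.01, Car3 lower and Car13, Car2 and Car4 higher in FANKO. Over all genes tested, 50.3% passed that threshold, 27.6% higher and 22.8% lower, so the members' share was near the background. The median log2 difference of the members was 0.20, beside -0.02 for all genes. Car3 ranged from 11770.5 to 21952 CPM in WT eWAT with a median of 14589, and from 3580 to 9676 CPM in FANKO eWAT with a median of 6063. No FANKO sample reached the lowest WT sample, a separation seen in 5.90% of all genes (1.33% with the knockout lower), and the log2 difference was -1.21 ± 0.10 (adjusted p = 2.0e-15, edgeR quasi-likelihood test with Benjamini-Hochberg adjustment over all genes). Car13 had a median of 17.7 CPM (11.8 to 27.1) in WT and 27.0 CPM (21.5 to 34.1) in FANKO eWAT and rose by 0.61 ± 0.08 on the log2 scale (edgeR adjusted p = 6.6e-10). The Car3 and Car13 calls held in all 20 alternative settings.

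The Car2 and Car4 calls in eWAT were less secure. Car2 had a median of 2.16 CPM (1.52 to 9.01) in WT and 4.32 CPM (3.22 to 6.30) in FANKO eWAT, and rose by 0.55 ± 0.17 (edgeR adjusted p = 0.0048), a call lost in 10 of 20 settings. The WT maximum of 9.01 CPM came from replicate 2 at ZT6, and without that library, an alternative chosen after seeing the data, the Car2 difference was 0.87 (edgeR adjusted p = 1.2e-07). Car4 had a median of 10.8 CPM (7.70 to 26.4) in WT and 17.1 CPM (8.88 to 22.3) in FANKO eWAT, and rose by 0.39 ± 0.13 (edgeR adjusted p = 0.0098), a call lost in 12 of 20 settings. Cell markers also moved beside these calls. The 7 brown adipocyte markers summed to 13.5 to 39.0 CPM in WT eWAT and 52.9 to 113 CPM in FANKO eWAT, without overlap, with 3 called higher and 1 lower and a median log2 difference of 1.21. The summed skeletal muscle markers had medians of 17.0 and 52.9 CPM in overlapping ranges, with 1 of 9 called, and the red blood cell markers overlapped at 116 to 589 CPM in WT and 124 to 351 CPM in FANKO eWAT. The 8 adipocyte markers overlapped at a summed 15294 to 27209 CPM in WT and 16202 to 23648 CPM in FANKO eWAT. Of them 1 was called higher and 4 lower, with a median log2 difference of -0.32. Of 6 lymphocyte markers 1 was called higher and 4 lower (median -0.83), and of 6 macrophage markers 2 higher and 1 lower (median -0.02). Over all genes 50.3% were called. The part of these markers in the lower Car3 was not tested. Car13, Car2 and Car4, the 3 members called higher in FANKO eWAT, were also higher in BAT than in eWAT of WT mice. For Car4 that did not hold with library totals as the only scaling. Both differences are taken against the same WT eWAT samples. A low WT eWAT level raises both, so nothing is read from the match. Car8 and Car14 were higher still in WT BAT against WT eWAT, without overlap, but neither was called in FANKO eWAT. Their eWAT medians were 1.04 CPM in WT and 0.780 CPM in FANKO for Car8, and 0.723 and 0.567 CPM for Car14, on few reads. The part of the brown adipocyte markers in any of these differences was not tested.

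The other members did not pass the test in eWAT. Mitochondrial Car5b had a median of 351 CPM (228 to 586) in WT and 417 CPM (346 to 504) in FANKO eWAT, with a log2 difference of 0.20 ± 0.09 (edgeR adjusted p = 0.044). Its sign turned to -0.040 when libraries were scaled by their total alone. Car8 was low, with medians of 1.04 CPM in WT and 0.780 CPM in FANKO eWAT and a log2 difference of -0.46 ± 0.21 (edgeR adjusted p = 0.051). Car14 was as low, at 0.723 CPM (0.268 to 1.57) in WT and 0.567 CPM (0.379 to 0.833) in FANKO eWAT, with a log2 difference of -0.33 ± 0.25 (edgeR adjusted p = 0.249).

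At single time points in eWAT, 7 of the 28 member and time point pairs passed FDR 0.01, beside 27.0% of all genes at ZT6, 24.5% at ZT10, 13.6% at ZT18 and 20.6% at ZT22. Car3 was called at every time point, with log2 differences of -1.49 at ZT6, -0.99 at ZT10, -0.98 at ZT18 and -1.39 at ZT22. Car13 was called at ZT6 (0.76) and at ZT10 (0.96), where the 4 WT samples stood at 12.3, 12.7, 13.4 and 14.0 CPM and the 4 FANKO samples at 23.9, 28.6, 27.0 and 21.5 CPM, all above. Car2 was called at ZT22 alone (1.19, edgeR adjusted p = 0.0044), with 1.82 to 2.5 CPM in the 4 WT samples and 4.32 to 6.30 CPM in the 4 FANKO samples. With 4 samples against 4, the genotypes did not overlap in eWAT for 2 members at ZT6, 5 at ZT10, 1 at ZT18 and 2 at ZT22, beside 35.6%, 37.9%, 21.7% and 29.3% of all genes. Whether these differences varied between time points was tested as a difference of rhythm, given below, which in the main fit sees only a 24 h pattern. The alternative with time as a factor allows any pattern over the 4 time points, and no member was called there either.

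Between the depots of WT mice the family split by isoform. All 6 members that could be tested differed at FDR 0.01 (73.7% of all genes did, 32.7% higher and 41.1% lower), with Car8, Car2, Car13 and Car4 higher in BAT and Car3 and Car5b higher in eWAT. Car8 was higher by 3.10 ± 0.18 on the log2 scale, Car2 by 2.37 ± 0.17 and Car13 by 1.74 ± 0.08, and none of the 3 overlapped between the 16 BAT and 16 eWAT samples. Car4 was higher by 0.69 ± 0.13 (edgeR adjusted p = 5.7e-06) with overlapping ranges, and its sign turned to -0.072 with library totals as the only scaling. Car3 had a log2 difference of -1.72 ± 0.11 and Car5b of -1.98 ± 0.09, both without overlap. Over all genes 27.1% did not overlap, and 14.2% in FANKO mice. Car14, untested because its brown fat level chose it, differed by 5.02 ± 0.19, with every WT BAT sample above every WT eWAT sample.

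Between the depots of FANKO mice, of the 6 members tested, 5 differed (59.7% of all genes, 28.1% higher and 31.6% lower in BAT). Car2 had overlapping ranges of 3.21 to 7.07 CPM in FANKO BAT and 3.22 to 6.30 CPM in FANKO eWAT and a log2 difference of 0.20 ± 0.17 (edgeR adjusted p = 0.291). Car8 was higher in BAT by 1.15 ± 0.20 and Car13 by 0.59 ± 0.08, while Car4 was lower in BAT by the log2 difference of -0.56 ± 0.13. Car5b at -1.70 ± 0.09 and Car3 at -4.60 ± 0.12 were lower in BAT without overlap, a pattern seen in 9.01% of all genes in that direction. Car14 differed by 0.33 ± 0.26 and was not tested. Whether a depot difference changed with genotype was not tested, since that term holds the BAT contrast that chose the family.

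**Figure D4:**
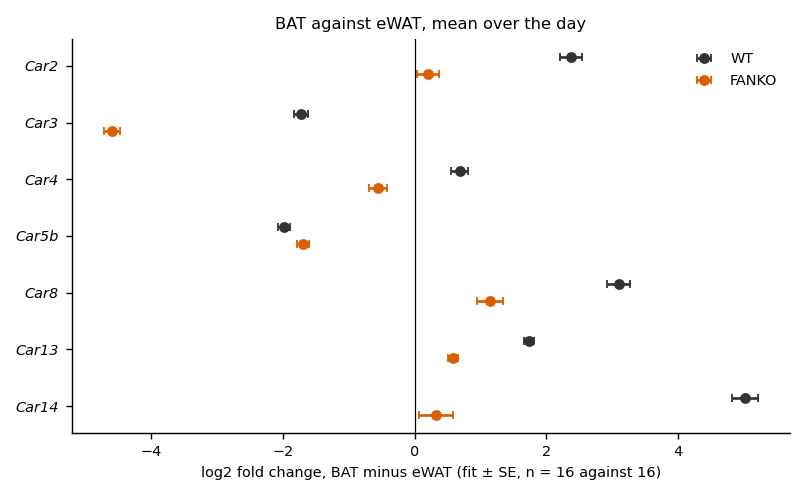
Fitted log2 difference in level, BAT minus eWAT, averaged over the 4 time points for each member in WT and in FANKO mice, with bars of 1 SE. In WT mice the points run from -1.98 for Car5b to 5.02 for Car14, and in FANKO mice from -4.60 for Car3 to 1.15 for Car8.

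Over the day, the levels of most members did not follow a cosine with a period of 24 h beyond the spread between samples. In each of the 4 combinations 1 of the 7 members passed FDR 0.01, Car5b in WT BAT, Car13 in WT eWAT and Car3 in both depots of FANKO mice, while the background was 13.9% of all genes in WT BAT, 9.38% in WT eWAT, 2.84% in FANKO BAT and 6.77% in FANKO eWAT. With 4 time points per day, the peak is given as the sampled time with the highest mean. In WT BAT, Car5b stood at 55.3, 74.1, 78.6 and 102 CPM at ZT6 and at 150, 84.0, 129 and 140 CPM at ZT18, so the lowest and highest groups overlapped, and its peak to trough range was 0.70 ± 0.26 on the log2 scale (edgeR adjusted p = 0.0039). The call was lost in 6 of 20 settings, among them leaving out the single library WT BAT ZT18 replicate 4 (edgeR adjusted p = 0.019) and the libraries rich in muscle markers (edgeR adjusted p = 0.306). In WT eWAT Car5b also had its highest mean at ZT18 and its lowest at ZT6, with 469 ± 106 and 323 ± 68.2 CPM (SD, n = 4) and an edgeR adjusted p of 0.057 across all genes.

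Car3 was rhythmic in the knockouts by this test. In FANKO BAT its mean was 404 ± 164 CPM at ZT10 and 182 ± 45.4 CPM at ZT6 (SD, n = 4), a range of 1.09 ± 0.34 on the log2 scale (edgeR adjusted p = 1.8e-04). That call was lost only without replicate 4 (edgeR adjusted p = 0.013) among 20 settings. In FANKO eWAT its mean was 8835 ± 941 CPM at ZT18 and 5046 ± 1036 CPM at ZT6 (SD, n = 4), a range of 0.83 ± 0.18 (edgeR adjusted p = 0.0050) that lost its call in 8 of 20 settings. In WT BAT the Car3 range was 0.41 ± 0.17 and in WT eWAT 0.28 ± 0.22, neither past the test. Car13 in WT eWAT stood at 26.7, 18.3, 25.4 and 17.6 CPM at ZT22, all above the ZT10 samples given before, with a range of 0.72 ± 0.16 (edgeR adjusted p = 2.9e-04), lost without replicate 1 (edgeR adjusted p = 0.021). In FANKO eWAT the same gene ranged by 0.15 ± 0.12.

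A difference of rhythm between the genotypes was not called for any member. By the edgeR test of the genotype by time terms 0 of 7 members passed in BAT (2.76% of all genes) and 0 of 7 in eWAT (1.15%), and DESeq2 and limma-voom also called 0 in each depot. At an unadjusted p under 0.05 there were 2 in BAT, Car3 and Car13, and 1 in eWAT, Car13. A rhythm past the threshold in one genotype and not in the other is therefore not shown to differ between them.

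**Figure D5:**
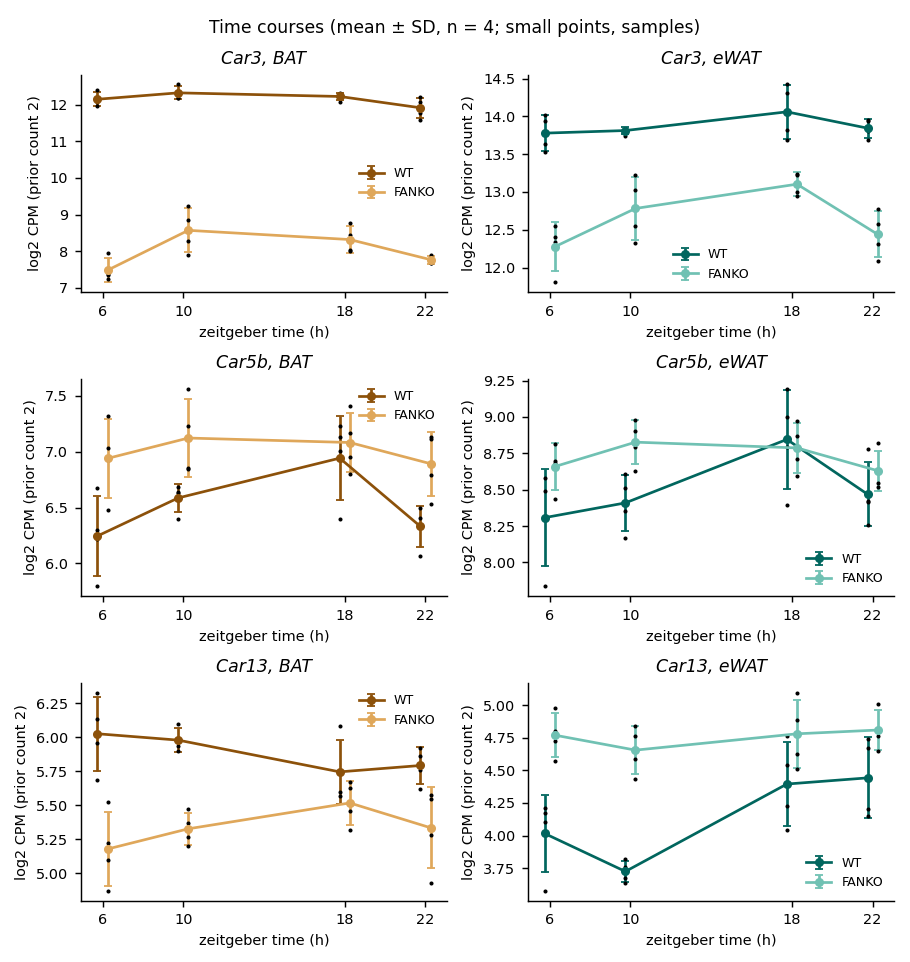
Level of Car3, Car5b and Car13, the members with a called rhythm, as log2 CPM (prior count 2) against ZT in WT and FANKO mice, BAT on the left and eWAT on the right, with small points for samples and lines through the means ± SD of 4 samples. The axes do not start at 0 and differ between panels. Car13 in WT eWAT is lowest at ZT10 (13.1 CPM) and highest at ZT22, while Car3 in FANKO BAT is highest at ZT10 (404 CPM).

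The rest of the family was sparse in these tissues. Of the 9 other carbonic anhydrase genes, 5 passed the filter and 3 of them differed between the genotypes in eWAT, near the 50.3% of all genes that did. Car12, a membrane isoform, rose by 3.85 ± 0.27 on the log2 scale (0.626 CPM in WT and 10.02 CPM in FANKO as medians). Its ranges overlapped, at 0.035 to 1.905 CPM in WT and 0.330 to 19.96 CPM in FANKO eWAT, so the rise was uneven between samples. Car11, an inactive relative, rose by 0.63 ± 0.11. Car1, the second carbonic anhydrase of red blood cells and the gene between Car13 and Car3, fell by 1.75 ± 0.17, from a median of 2.29 CPM to 0.617 CPM. Its neighbours in the cluster were lower (Car3) and higher (Car2, Car13) in FANKO eWAT. In BAT, where no test is given, the 5 genes differed in both directions. Car1 had a log2 difference of -3.98 ± 0.32, with medians of 0.569 CPM in WT and 0 CPM in FANKO, Car11 of -0.77 ± 0.10 and Car7 of -0.48 ± 0.11. Car9, a membrane isoform, had one of 3.57 ± 0.29 and Car12 of 2.42 ± 0.42, both from near the floor. Car9 had medians of 0.080 CPM in WT BAT (0 to 2 reads) and 1.06 CPM in FANKO BAT (7 to 29 reads). Car12 had medians of 0.160 CPM (0 to 6 reads) and 0.993 CPM (5 to 37 reads).

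Genes that move or use the family's products were read from lists, whose counts in eWAT stand beside 50.3% of all genes called, 27.6% higher and 22.8% lower, and are no result about the lists. Of 10 genes listed as bicarbonate-fixing carboxylases or related enzymes, not all of which fix bicarbonate, 7 differed between the genotypes in eWAT. Of these, 3 were higher and 4 lower (median log2 difference of the list -0.22). The higher ones were Acaca, cytosolic acetyl-CoA carboxylase, by 1.53 ± 0.16, Acacb, its mitochondrial surface counterpart, by 1.06 ± 0.10, and Pcx, pyruvate carboxylase, by 0.77 ± 0.09. In BAT, where no test is given, all 3 were lower in FANKO, with log2 differences of -0.94 ± 0.16, -1.15 ± 0.10 and -0.43 ± 0.09. Of 14 bicarbonate transporters 9 were tested and 5 differed in eWAT, 1 higher and 4 lower. Slc4a4, a sodium bicarbonate cotransporter, fell by 0.64 ± 0.15 from a median of 37.5 CPM to 25.6 CPM, and its sparse relative Slc4a10 fell by 0.78 ± 0.26 from 0.546 CPM to 0.314 CPM. Of 10 proton and lactate transporters 6 differed, 3 higher and 3 lower, among them Slc16a7, a monocarboxylate transporter, which fell by 1.51 ± 0.10, and Slc9a2, a sodium proton exchanger, which rose by 2.43 ± 0.18. Slc26a3 (-2.20 ± 0.57) and Slc9a3 (3.99-fold lower) also passed, but in both the WT eWAT replicate 2 at ZT6 stood apart at 19.1 and 13.0 CPM while the medians of both genotypes were at most 0.321 CPM. That is the same library that held the highest Car2 in eWAT.

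The likeness of each member to other genes was taken over the 16 group means as Pearson's r of log2 CPM, as a description, since the means share depots and genotypes. Genes with a mean log2 CPM of at least 1 were compared. Closest to Car14 were Acat1, Fahd2a and Ech1, each with r = 0.99, where Acat1 is a mitochondrial thiolase and Ech1 an enzyme of fatty acid oxidation. Car8 was closest to Mecr, an enzyme of mitochondrial fatty acid synthesis, Sfxn5 and Sec14l4 (0.98 each). Car2 was closest to Ndrg3, Mrpl45 and Tfam (0.98 each), of which Tfam packages mitochondrial DNA. Car3 was closest to Acp5, Cd302 and Gstz1, and Car5b to Os9, Olfml1 and Mpp1 (0.99 each). Car13 was closest to Tomm5, a subunit of the mitochondrial import pore, Tbrg4 and Uck1 (0.99 each). Car4 had lower r, with Adh5 (0.92), Fam210b (0.91) and Sod1 (0.91). Among the members, Car14 ran with Car8 (r = 0.94) and Car2 (0.91), below its r with Aph1a (0.97), the gene with which it shares exonic bases. Car5b ran against Car2, Car8, Car13 and Car14 (-0.85 to -0.72).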

How the data were processed

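Total RNA from whole BAT and eWAT was sequenced by the authors as stranded, ribosomal RNA depleted libraries with paired reads of 38 bp. Per the submitters' processing notes, reads were checked with FastQC 0.11.5 and MultiQC 1.2, aligned with STAR 2.5.3a to GRCm38.p5 with GENCODE 15 annotation and summed with featureCounts 1.5.3. The options for strand and multi-mapping reads are not given in the sources used here. The authors deposited the values as raw counts per gene, not normalised, in 1 table of 64 columns. No 2 columns were identical.

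Symbols and positions came from GENCODE M21, which matched 52489 of 52636 identifiers. With edgeR 4.0.16 (R 4.3.3), genes were filtered with filterByExpr (minimum count 10, minimum total 15), scaled with TMM and fitted by quasi-likelihood over all 64 samples, with a mean, cosine and sine term (24 h) for each depot and genotype together. Calls used Benjamini-Hochberg FDR 0.01 over all 20249 genes tested. Mean differences used the mean terms, rhythms the cosine and sine terms, and single time points a fit of 16 group means. SEs of fitted differences are the size of the log2 difference over the square root of F. A peak to trough range is the highest minus the lowest group mean of log2 CPM, picked from the data. Its SE comes from the SDs of those groups. The p-value beside such a range tests the cosine and sine terms, not the range. log2 CPM used a prior count of 2. Samples of a group are numbered replicates in the labels, which do not say whether each is a separate animal, so p-values measure the spread between these samples. DESeq2 1.42.0, limma 3.58.1 (voom), RLE factors, library size alone, no mitochondrial genes, other filters, separate depot fits, time as a factor, a replicate block, FDR 0.05 and leaving out replicates or libraries were alternatives. The scripts were tested on simulated counts. The members and all gene lists were chosen with earlier results of these data known. Named genes outside the family were the up to 3 genes of each list that passed in eWAT with the largest change, plus Nampt, Aph1a and marker genes. Car7 and Car9 in BAT were named after the values were seen. Figures used matplotlib 3.10.9.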

Additional observations from a re-analysis of the deposited data

Results flagged for a closer look

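In 7 of 112 groups of 4 samples, the level of a member in 1 sample stood far from the other 3 by Dixon's ratio, which chance does in about 5% of groups. Car2 in WT eWAT at ZT6 was 9.01 CPM in replicate 2, with the nearest other sample at 2.43 CPM. That library's epididymis markers summed to 7.05 CPM and its muscle markers to 10.8 CPM. Car2 in FANKO eWAT at ZT22 was 6.30 CPM in replicate 4 (nearest 4.55). Car3 in WT eWAT at ZT10 was 13741 CPM in replicate 2 (nearest 14583), a small gap among close values. Car8 was 1.10 CPM in WT eWAT ZT10 replicate 1 (nearest 0.785), 2.60 CPM in WT eWAT ZT18 replicate 4 (nearest 1.13) and 0.210 CPM in FANKO eWAT ZT6 replicate 2 (nearest 1.13). Car14 in FANKO BAT at ZT18 was 0.475 CPM in replicate 4 (nearest 0.754).

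Car13 and Car2 went in opposite directions in the 2 depots at some time points. At ZT6 and ZT10 all 4 FANKO samples lay below all 4 WT samples for Car13 in BAT and above them in eWAT, with eWAT log2 differences of 0.76 and 0.96. For Car2 the same held at ZT10 (eWAT log2 difference 0.85) and at ZT22 (1.19). The difference between depots was not tested.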

How the results depend on the processing

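For the members, 1292 of the values recomputed under the alternatives kept their direction and side of the threshold, 38 lost their call, 3 gained one, 5 brown fat differences moved by more than their error and 3 turned sign, and of the counts of members 190 stayed within 1.5 times and 26 did not. Scaling by library size alone turned Car5b in eWAT (-0.040), Car4 between WT depots (-0.072) and Car13 in BAT (0.039), and moved the median BAT difference of the members to -1.05. It moved the median of all genes by -0.25 for the genotypes in eWAT, 0.58 in BAT and -0.74 for the WT depots, and the share of calls that were higher from 54.8% to 21.8%, 49.4% to 84.9% and 44.3% to 13.7%. In eWAT 2 members, Car3 and Car13, were called with RLE factors, no filter, a minimum count of 50, separate depot fits, or without the muscle-rich or epididymis-rich libraries. Without the epididymis-rich libraries, the edgeR adjusted p was 0.128 for the Car2 difference in eWAT and 0.285 for the Car3 rhythm in FANKO eWAT. Rhythmic members were 0 in WT BAT with library size alone, separate fits, without WT BAT ZT18 replicate 4 (Car5b edgeR adjusted p = 0.019) or without the muscle-rich libraries, 2 in WT eWAT with time as a factor (Car4 added), and 0 in FANKO eWAT with library size alone, time as a factor, or without the muscle-rich or epididymis-rich libraries. The alternatives that leave out chosen libraries were added after seeing the data, and the cause of these changes was not tested. Leaving out each replicate gave 2 to 3 members in eWAT, 6 between WT depots, 5 between FANKO depots, 0 for the differences of rhythm, 0 to 1 rhythmic members in WT BAT, FANKO BAT and WT eWAT, 0 in FANKO eWAT, 6 to 8 pairs at single time points, and a median BAT difference of -1.76 to -1.46. Over all genes, rhythmic genes ranged from 1631 to 4470 in WT BAT (2807 reported), 168 to 1396 in FANKO BAT (575), 768 to 3439 in WT eWAT (1899) and 421 to 2506 in FANKO eWAT (1370), and differences of rhythm from 183 to 1205 in BAT (559) and 31 to 613 in eWAT (232). Same-numbered samples correlated weakly (mean r 0.129 between depots, from -0.214 to 0.450, and 0.121 between genotypes, beside -0.041 for other numbers in both). Of 64 samples, 38 and 41 correlated best with their own number, more than an even pick among the 4 numbers would give. Samples of a number thus shared some structure, whose source was not tested. Only 18 and 17 of 32 pairs were over 0.1, and the labels state no pairing, so the samples were not treated as paired. If BAT and eWAT of a number did come from the same animal, the depot tests leave that pairing out. The replicate block changed no count: 4 members in eWAT, 6 between WT depots, 5 between FANKO depots, 1 rhythmic member in each combination, 0 differences of rhythm, 7 pairs at single time points and a median BAT difference of -1.61. That block held terms for the replicate number common to all groups, so it did not link the depots of a single animal. Car14 and Car8 in eWAT and in FANKO BAT rest on few reads, and their SEs were the widest of the members in eWAT.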
